A study of Homo sapiens with 8 samples.

Results

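The contrast described here is the effect of the KDM6 inhibitor GSK-J4 minus the effect of KDM6B siRNA, gene by gene, and it uses all 8 of the 8 arrays of the series. BE2C cells are an established human neuroblastoma line that carries extra copies of MYCN, and every group was this 1 line. Cells received either vehicle (0.1% DMSO) or GSK-J4 for 24 h, and other cells received control siRNA or KDM6B siRNA at 30 nM for 48 h, with 2 arrays in each of the 4 groups. The sample labels state 2.5 mM for GSK-J4, but doses for cultured cells in the study are micromolar, which leaves the unit uncertain. The labels do not say which siRNA sequence went into which culture. Inhibitor and siRNA also differ in exposure time and in how they were delivered, and these cannot be told apart from the agents in any difference given below.

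KDM6A and KDM6B erase the methylation of lysine 27 on histone H3 that PRC2 writes and that accompanies gene silencing. GSK-J4 is an ester that cells convert into an inhibitor of these enzymes, which hold an iron ion in their active site, whereas an siRNA is directed at the mRNA of 1 gene. Effects of the siRNA on other mRNAs cannot be told apart here from loss of KDM6B. Neuroblastoma arises from the sympathetic branch of the neural crest, and its adrenergic form expresses the transcription factors and enzymes of catecholamine-producing cells. The comparison asks where the response to the inhibitor and the response to KDM6B siRNA part.

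Each of 17687 genes had 1 log2 expression value per array. For each gene, the drug effect was GSK-J4 minus DMSO, the knockdown effect was KDM6B siRNA minus control siRNA, and the interaction was the drug effect minus the knockdown effect. All were tested in 1 limma fit with Benjamini-Hochberg adjustment over all genes, and "called" means an adjusted p under 0.05. An array's background limit was the 95th percentile of its negative control probe sets, and a gene below that limit on both arrays of a group is termed not above background there. All 8 of the 8 measured adrenergic markers lay above background in every group, with array medians from 9.09 to 9.95. Of the other cell type markers, 5 of 7 mesenchymal, 2 of 4 Schwann cell and 3 of 8 blood, endothelial and epithelial markers also lay above background in every group, while YAP1, ERBB3, CDH19, CD3E and HBB did so in none. Mesenchymal marker medians stood at 5.12 and 6.23 on the KDM6B siRNA arrays against 5.33 to 5.72 on the other 6. Adrenergic marker medians lay at 9.09 and 9.53 on the KDM6B siRNA arrays against 9.79 to 9.95 on the other 6, and the part of these marker levels in the results was not tested.

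KDM6B, the target of the siRNA, stood at 8.17 and 8.47 with DMSO, 9.41 and 9.18 with GSK-J4, 8.27 and 8.35 with control siRNA, and 7.22 and 5.76 with KDM6B siRNA. Both KDM6B siRNA arrays lay below every other array, and both GSK-J4 arrays lay above every other array. In the limma fit neither effect was called. The knockdown effect was -1.82 (adjusted p = 0.0878) and the drug effect 0.98 (adjusted p = 0.250). The interaction of 2.80 (SE 0.55) did not pass in the limma fit (adjusted p = 0.0706). It passed with array weights (adjusted p = 0.00771), which count the KDM6B siRNA arrays least. The interaction was 3.53 without KDM6B siRNA replicate 1 and 2.07 without replicate 2. Most of the gene's spread lies between these 2 arrays (SD 1.03, against 0.21 with DMSO). A fit without either of them leaves that spread out, so it cannot settle whether the interaction passes. KDM6A, the other demethylase that GSK-J4 inhibits, lay between 6.56 and 7.05 on all 8 arrays, with an interaction of 0.30 (adjusted p = 0.674). The KDM6B siRNA arrays differed from each other more than the other pairs did. Over all genes 906 lay more than 1 log2 unit apart between them, against 8 for DMSO, 6 for GSK-J4 and 3 for control siRNA.

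The interaction was called for 163 genes. The drug effect was the higher one for 132 of them (0.746% of genes tested) and the knockdown effect for 31 (0.175%). The smallest called interaction measured 0.93 and the largest 4.23 on the log2 scale, against a median SE of 0.22 over all genes. In 126 of the 163 genes the drug and knockdown effects had opposite signs, against 7482 of the 16935 genes with no call of any kind. Choosing genes by a large difference between the effects favours opposite signs by itself. Of the 126, 82 were genes with only the drug effect called, a class whose median knockdown effect was -0.07. Over all genes the median interaction was -0.02. A fit without 1 of the KDM6B siRNA arrays leaves the widest pair out of the spread and calls many more genes, so a call kept there adds little. Without any 1 of the DMSO, GSK-J4 and control siRNA arrays, most of the 163 lost their call. All 163 kept their sign in each of the 8 fits with 1 array left out. They had been chosen for a large interaction, so a kept sign does not show that a call is firm. Of the 62 genes with a called interaction that the naming rule chose, 13 were called in all 8 fits, namely COXFA4L2, ARG2, DDIT3, DDIT4, SLC7A3 and the 8 metallothioneins named below.

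The 163 genes fell into 4 classes. In 115 genes the drug effect was called and the knockdown effect was not (drug-only), with 97 rising under GSK-J4 and 18 falling. In 19 genes the knockdown effect was called and the drug effect was not (knockdown-only), with 2 rising after KDM6B siRNA and 17 falling. In 9 genes both effects were called with opposite signs, and in 20 genes neither effect was called by itself although their difference was. A missed threshold does not show an absent effect, so the interval of the other effect was read as well. The 95% confidence interval of the knockdown effect lay within 1 log2 unit of 0 for 99 of the 115 drug-only genes, and the interval of the drug effect did so for all 19 knockdown-only genes. In 10 of the 115 drug-only genes neither siRNA group was above background, so the knockdown effect was not measured there.

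These counts stand beside unequal numbers of calls for each effect. GSK-J4 raised 405 genes (2.29%) and lowered 249 (1.41%), while KDM6B siRNA raised 20 (0.113%) and lowered 87 (0.492%). Of the 654 drug calls 124 (19.0%) also had a called interaction, and of the 107 knockdown calls 28 (26.2%) did. The order of the classes rested on the KDM6B siRNA arrays. Without replicate 1 there were 572 drug-only and 1286 knockdown-only genes, and without replicate 2 there were 559 and 312. In these fits the lone KDM6B siRNA array is assumed to vary as the other groups do.

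**Figure D1:**
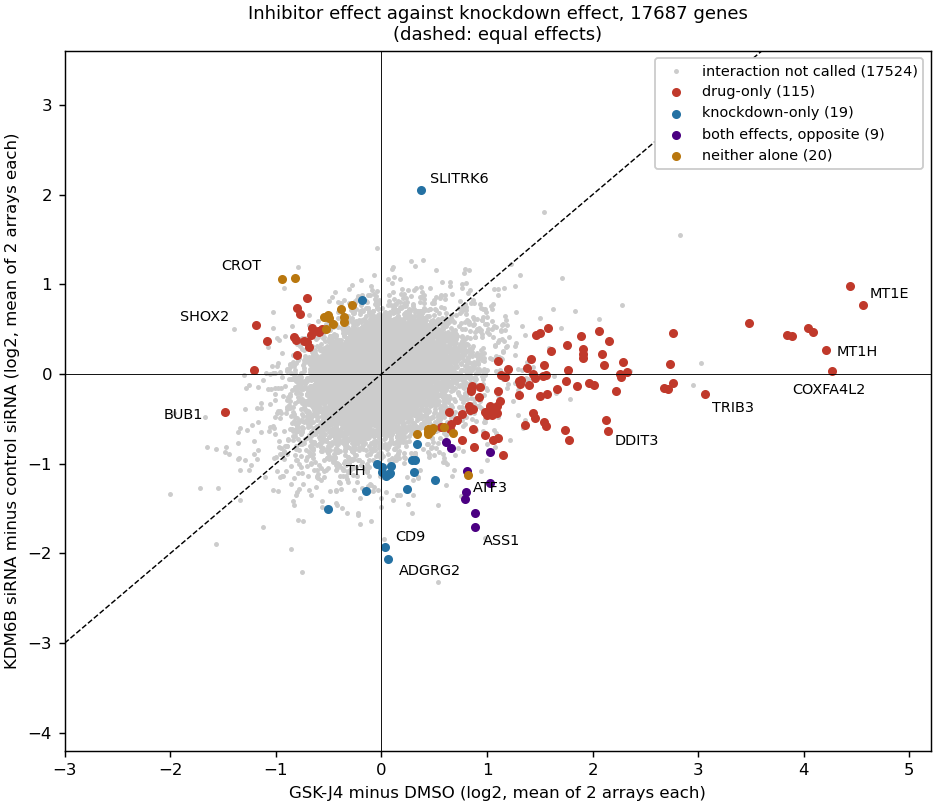
Drug effect (GSK-J4 minus DMSO, horizontal axis) against knockdown effect (KDM6B siRNA minus control siRNA, vertical axis), in log2 units, for 17687 genes, each point 1 gene and each effect a difference of means of 2 arrays. Coloured points are the 163 genes with a called interaction, by class, and most of the 115 drug-only genes spread to the right along the line of no knockdown effect.

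Metallothioneins, small proteins that bind zinc and copper and whose genes are switched on by metals, held most of the largest interactions. Of 14 measured genes for metallothioneins and zinc export, 10 were called with the drug effect higher (0.746% of all genes) and all 10 were drug-only. In the list 0 were called the other way (0.175% of all genes). The list had a median drug effect of 3.66, a median knockdown effect of 0.42 and a median interaction of 3.16, against -0.02 over all genes. MT2A, the most widely expressed form, stood at 8.70 and 8.38 with DMSO and at 12.66 and 12.61 with GSK-J4. It stood at 9.31 and 9.44 with control siRNA and at 10.03 and 9.66 with KDM6B siRNA. The GSK-J4 arrays lay above all others, and the KDM6B siRNA arrays lay above the control siRNA arrays without the knockdown effect passing (0.47, 95% confidence interval 0.09 to 0.85, adjusted p = 0.253). Its interaction was 3.62 (SE 0.24, adjusted p = 0.000605).

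MT1H had the largest interaction of the family, 3.94, with values of 6.21 and 6.04 in DMSO, 10.36 and 10.30 in GSK-J4, 6.35 and 6.55 in control siRNA and 6.77 and 6.66 in KDM6B siRNA. MT1E followed at 3.79, MT1X at 3.53, MT1L at 3.47, MT1F at 3.46, MT1G at 3.40 and MT1B at 2.91, all drug-only. Their knockdown effects also pointed up, at 0.77, 0.51, 0.42, 0.98, 0.43 and 0.57 in the same order. The confidence interval of each lay wholly on the side of a rise, while that of MT1H (0.27) did not. None of these knockdown effects passed in the limma fit, where MT1F had the lowest adjusted p (0.0934). The metallothionein genes are close paralogs, so their probe sets may share signal and they are not separate observations. MT3 and MT4, which are expressed in few tissues, had interactions of -0.03 and 0.39 that did not pass (adjusted p = 0.982 and 0.613). The zinc exporter SLC30A1, which cells also raise when zinc is high, stood at 6.996 and 7.16 with DMSO, 8.93 and 9.00 with GSK-J4, 7.21 and 7.26 with control siRNA and 7.43 and 7.89 with KDM6B siRNA. Its interaction of 1.46 passed (adjusted p = 0.0333).

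Because these genes moved together under the drug, the 250 bases before their RefSeq start sites (GRCh38.p14) were searched on both strands for TGCNCNCG, the first letters of the metal response element that the zinc-sensing factor MTF1 binds. All 7 list members with a window held a match, against 22.1% of the 14250 tested genes with a window and 14.2% of all 35116 windows. Matches stood in 29 of 95 drug-only genes (30.5%) and in 7 of 17 knockdown-only genes (41.2%). The windows of 3 metallothionein genes and of the zinc exporter are shown 5′ to 3′ with matches in capitals, to place the matches beside the values given above.
MT2A, chr16:56608334-56608583, plus strand: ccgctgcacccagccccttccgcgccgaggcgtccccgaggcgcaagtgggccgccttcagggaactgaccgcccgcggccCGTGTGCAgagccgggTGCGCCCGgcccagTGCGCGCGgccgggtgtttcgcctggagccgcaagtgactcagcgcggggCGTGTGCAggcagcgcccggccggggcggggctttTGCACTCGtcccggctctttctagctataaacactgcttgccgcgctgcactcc
MT1X, chr16:56682220-56682469, plus strand: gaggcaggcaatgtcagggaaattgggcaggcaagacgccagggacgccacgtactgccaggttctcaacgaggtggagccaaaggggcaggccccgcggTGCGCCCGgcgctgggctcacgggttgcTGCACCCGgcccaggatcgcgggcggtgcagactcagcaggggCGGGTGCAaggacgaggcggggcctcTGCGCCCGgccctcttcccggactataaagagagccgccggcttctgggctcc
MT1H, chr16:56669564-56669813, plus strand: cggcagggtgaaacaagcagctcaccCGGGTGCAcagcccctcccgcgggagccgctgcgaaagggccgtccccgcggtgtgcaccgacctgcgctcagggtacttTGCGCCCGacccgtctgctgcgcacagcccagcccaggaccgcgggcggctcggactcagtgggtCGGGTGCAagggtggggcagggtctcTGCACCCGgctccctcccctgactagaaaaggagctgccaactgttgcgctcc
SLC30A1, chr1:211579162-211579411, minus strand: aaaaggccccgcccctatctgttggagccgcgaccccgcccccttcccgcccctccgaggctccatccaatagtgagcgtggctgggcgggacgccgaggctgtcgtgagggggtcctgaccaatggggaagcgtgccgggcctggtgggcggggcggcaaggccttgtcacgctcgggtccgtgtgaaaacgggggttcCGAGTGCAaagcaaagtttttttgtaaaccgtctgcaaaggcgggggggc
MT2A held 5 matches, MT1X and MT1H 4 each and SLC30A1 1. A match describes these letters and not a bound site.

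Stress genes under ATF4 formed the next group. ATF4 is the transcription factor that cells translate when amino acids run short or proteins misfold, and it raises genes for stress signalling and for amino acid supply. Of 18 measured signalling targets 9 were called with the drug effect higher (0.746% of all genes) and 0 the other way (0.175%). The interaction was above 0 for all 18, with a median of 1.47. The median drug effect was 1.17 and the median knockdown effect -0.05, or -0.16 and -0.03 on the KDM6B siRNA arrays taken separately. TRIB3, a pseudokinase that restrains ATF4 signalling, stood at 6.06 and 5.79 with DMSO, 8.88 and 9.09 with GSK-J4, 5.93 and 6.09 with control siRNA and 5.47 and 6.10 with KDM6B siRNA. The GSK-J4 arrays stood apart from the other 6, which overlapped, and the interaction was 3.29 (SE 0.30, adjusted p = 0.00348).

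DDIT3 encodes CHOP, a factor of the late stress response. It read 6.49 and 6.29 with DMSO, 8.46 and 8.60 with GSK-J4, 6.61 and 6.75 with control siRNA and 6.16 and 5.94 with KDM6B siRNA. Here the knockdown effect pointed down (-0.63, adjusted p = 0.0966) and the interaction was 2.77 (SE 0.20, adjusted p = 0.000834). DDIT4, an inhibitor of mTORC1, rose by 2.27 under GSK-J4 with a knockdown effect of -0.03 (95% confidence interval -0.35 to 0.29) and an interaction of 2.30. GDF15, a secreted stress hormone, and SESN2, a leucine sensor upstream of mTORC1, had interactions of 1.44 and 1.52, and both were drug-only.

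The supply genes of the same response varied. Of 13 amino acid transporters 5 were called with the drug effect higher (0.746% of all genes), and the list's median interaction was 1.01. SLC7A3, a transporter of arginine and lysine, read 4.66 and 4.52 with DMSO, 7.23 and 7.42 with GSK-J4, and was not above background in either siRNA group, so its knockdown effect was not measured. SLC1A4, a transporter of neutral amino acids, was above background with GSK-J4 alone, and stood there at least 3.96-fold over DMSO. SLC6A9, a glycine transporter, and SLC43A1, which carries large neutral amino acids, had interactions of 1.35 and 1.50.

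Of 16 cytosolic aminoacyl-tRNA synthetases, which charge tRNAs, WARS1 (interaction 1.57) and SARS1 (1.25) were called and both were drug-only. Of 12 enzymes of serine, glycine and one-carbon metabolism SHMT2 and ALDH1L2 were called, and the interaction was above 0 for all 12. Of 11 amino acid synthesis enzymes only ASS1 was called, although 7 of the 11 had an unadjusted p under 0.05. The calls in these lists had the drug effect higher, as did those of 0.746% of all genes.

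The letters TGATGNAA, a form of the amino acid response element that ATF4 dimers bind, were searched in the same windows. They stood in 5 of 16 signalling targets with a window (31.2%), in 5 of 95 drug-only genes (5.26%), in 2 of 17 knockdown-only genes (11.8%) and in 3.15% of all tested genes with a window. The 3 members of the signalling and transporter lists that had both a match and a called interaction are shown in the same way, as they place the match beside a measured response.
ATF3, chr1:212565157-212565406, plus strand: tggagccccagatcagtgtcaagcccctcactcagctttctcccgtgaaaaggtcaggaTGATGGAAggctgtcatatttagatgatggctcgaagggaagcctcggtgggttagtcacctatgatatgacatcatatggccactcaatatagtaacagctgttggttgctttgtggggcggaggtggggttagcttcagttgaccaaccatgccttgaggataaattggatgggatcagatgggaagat
JDP2, chr14:75427772-75428021, plus strand: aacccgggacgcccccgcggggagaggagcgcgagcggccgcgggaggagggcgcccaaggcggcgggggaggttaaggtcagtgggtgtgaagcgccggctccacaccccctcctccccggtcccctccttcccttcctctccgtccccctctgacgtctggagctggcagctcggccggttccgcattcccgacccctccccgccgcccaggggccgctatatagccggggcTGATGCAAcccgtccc
SLC1A5, chr19:46784815-46785064, minus strand: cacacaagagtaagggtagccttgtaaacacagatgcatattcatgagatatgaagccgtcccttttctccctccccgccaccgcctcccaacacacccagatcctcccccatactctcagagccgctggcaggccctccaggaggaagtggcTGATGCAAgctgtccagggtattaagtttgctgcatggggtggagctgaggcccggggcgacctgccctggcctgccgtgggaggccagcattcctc
JDP2, a partner and repressor of AP-1 factors, had an interaction of 1.19, and SLC1A5, the main glutamine transporter, had one of 1.20. ATF3 is described with the genes of opposite effects. These 3 genes were chosen for their match after their values were seen.

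Genes of the unfolded protein response, which enlarges the folding and disposal capacity of the endoplasmic reticulum, moved with the drug as well. Of 28 measured members 11 rose under GSK-J4 (2.29% of all genes did) and 0 were called after KDM6B siRNA. The interaction was called for 7, all with the drug effect higher (0.746% of all genes). KDM6B siRNA raised 0.113% and lowered 0.492% of all genes, so 0 calls among 28 does not show an absent effect. The median drug effect was 0.31, the median knockdown effect -0.18 and the median interaction 0.71. ERN1, which encodes the sensor IRE1, read 5.72 and 5.82 with DMSO, 8.56 and 8.49 with GSK-J4, 5.57 and 5.98 with control siRNA and 6.03 and 6.44 with KDM6B siRNA. Its siRNA groups did not overlap but differed by 0.46 (adjusted p = 0.297), and the interaction was 2.30 (SE 0.26, adjusted p = 0.00885). EDEM1, which sends misfolded glycoproteins to disposal, HERPUD1, a part of the disposal machinery in the membrane, and the chaperone partner DNAJB9 had interactions of 1.79, 1.75 and 1.73.

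Hypoxia and glycolysis genes made up the fourth drug-moved list. These are targets of HIF, whose oxygen-sensing hydroxylases, like the KDM6 enzymes, use iron and 2-oxoglutarate. Of 33 measured members 9 rose under GSK-J4 (2.29% of all genes did). In the interaction 7 were called with the drug effect higher (0.746% of all genes), and it was above 0 for 31. After siRNA 0 were called, where 0.113% of all genes rose and 0.492% fell, so this does not show an absent effect. The median drug effect was 0.39, the median knockdown effect -0.20 and the median interaction 0.47. VEGFA, the growth factor of blood vessels, stood at 9.84 and 9.78 with DMSO, 11.39 and 11.30 with GSK-J4, 9.99 and 9.80 with control siRNA and 9.70 and 9.00 with KDM6B siRNA. The interaction was 2.07 (SE 0.30, adjusted p = 0.0256). PDK1, which turns pyruvate away from mitochondria, had an interaction of 1.94 from unlike baselines, since it read 7.49 and 7.36 with DMSO and 6.31 and 6.04 with control siRNA. KDM3A, a histone H3 lysine 9 demethylase, had an interaction of 1.78 and PFKP, a glycolytic kinase, one of 1.66. KDM3A was the 1 call among 22 histone lysine demethylases, against 0.746% of all genes called with the drug effect higher.

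The largest interaction of all belonged to COXFA4L2, also known as NDUFA4L2, which lowers respiration in hypoxic cells. It read 4.46 and 4.69 with DMSO, where it was not above background, and 8.76 and 8.92 with GSK-J4, at least 17.0-fold higher. With control siRNA it read 4.94 and 4.54 and with KDM6B siRNA 4.64 and 4.92, around the background limits of 4.62 to 4.89, so its interaction of 4.23 is set by the drug arms. ARG2, the mitochondrial arginase, read 5.69 and 5.77 with DMSO, 8.41 and 8.58 with GSK-J4, 5.09 and 5.19 with control siRNA and 4.94 and 5.14 with KDM6B siRNA, an interaction of 2.86. ULBP1, a ligand that natural killer cells recognise, had an interaction of 2.88 with a wider error (SE 0.39, adjusted p = 0.0194).

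Together the metal, ATF4 and amino acid, unfolded protein and hypoxia lists (8 lists, 145 genes) held 43 called interactions with the drug effect higher (29.7%, against 0.746% of all genes), 40 of the 97 drug-only genes that rose, 0 knockdown-only genes and 0 interactions called the other way. The lists were compiled with earlier results of these arrays known, so their share is a description.

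**Figure D2:**
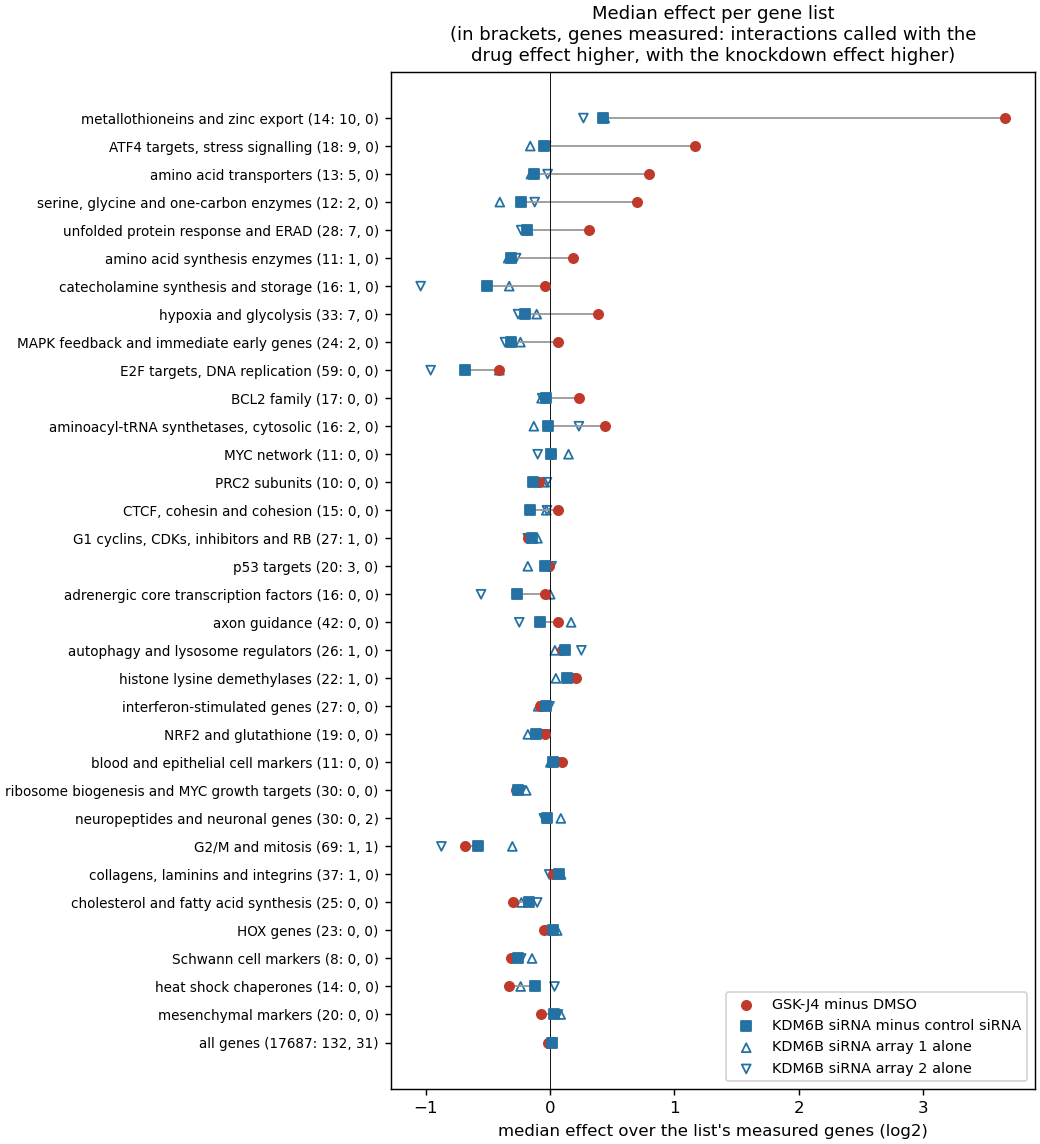
Median drug effect (red circles), median knockdown effect (blue squares) and the median difference of each KDM6B siRNA array from the control siRNA mean (open triangles), in log2 units, for 33 gene lists ordered by median interaction and for all genes at the bottom. Metallothioneins lie at 3.66 against 0.42, whereas for E2F targets and G2/M genes both effects lie below 0 and the KDM6B siRNA arrays lie apart.

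The drug-only genes that fell were fewer and less extreme, with drug effects from -0.56 to -1.48. SHOX2, a homeobox factor of limb and nervous system development, read 8.96 and 9.10 with DMSO, 7.85 and 7.84 with GSK-J4, 8.31 and 8.39 with control siRNA and 8.84 and 8.96 with KDM6B siRNA. Its levels fell with the drug and lay higher with the siRNA, without the latter passing (0.55, adjusted p = 0.0939), and the interaction was -1.74 (SE 0.17, adjusted p = 0.0048). FAM217B, DCAF6, HMGN5 and ACADSB followed with interactions of -1.56, -1.53, -1.45 and -1.44. DCAF6 is an adaptor of a ubiquitin ligase, HMGN5 binds nucleosomes and ACADSB is a mitochondrial dehydrogenase of branched-chain acids. In FAM217B and DCAF6 the knockdown effect pointed up and stood near the threshold (adjusted p = 0.0548 and 0.0646). PCDH18, a protocadherin of cell adhesion, was the reverse case, at 8.23 and 8.55 with DMSO, 7.27 and 7.10 with GSK-J4, 8.33 and 8.30 with control siRNA and 8.45 and 8.28 with KDM6B siRNA. Its knockdown effect was 0.05 (95% confidence interval -0.29 to 0.39), and the interaction was -1.25.

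C6orf120 and PALMD were also drug-only, with interactions of -1.24 and -1.18. CROT, which prepares shortened fatty acids to leave peroxisomes, CAB39L, a cofactor of the kinase LKB1, and BBS10, a chaperonin-like protein of cilia, had interactions of -1.99, -1.90 and -1.18 although neither effect passed by itself. CROT read 5.38 and 5.26 with DMSO, 4.38 and 4.38 with GSK-J4, 5.80 and 5.61 with control siRNA and 6.37 and 7.15 with KDM6B siRNA. It was not above background with GSK-J4, and the fold there was at least 1.37 against DMSO. CAB39L was not above background with GSK-J4 either (at least 1.67-fold lower).

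**Figure D3:**
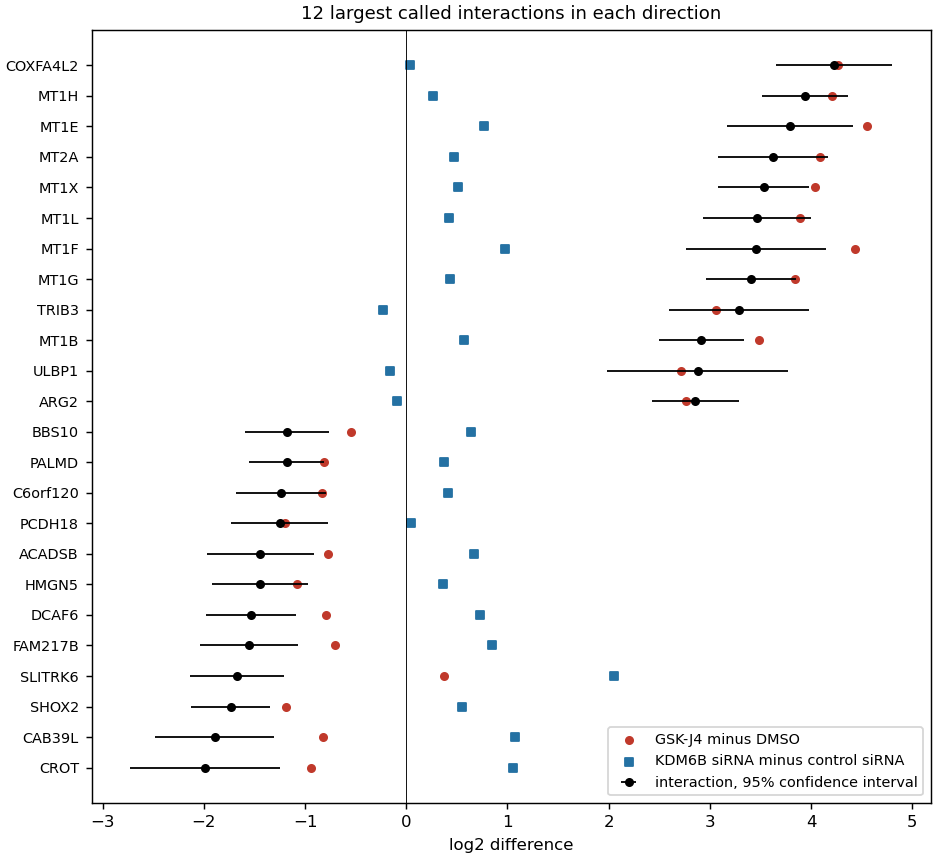
Interaction (black points) with its 95% confidence interval, drug effect (red circles) and knockdown effect (blue squares), in log2 units, for the 12 largest called interactions in each direction. Among the upper 12 genes the drug effects lie between 2.72 and 4.56 and the knockdown effects between -0.23 and 0.98, while among the lower 12 SLITRK6 alone has its drug effect above 0.

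Of the 19 knockdown-only genes, 3 were members of any list (CD9, SLITRK6 and TH), against 743 of all 17687 genes. No list held more than 1 of them. With 19 genes and lists compiled with earlier results known, this does not show that they lack a common function. CD9 encodes a tetraspanin, a membrane scaffold for integrins. It read 9.58 and 9.61 with DMSO, 9.59 and 9.66 with GSK-J4, 10.22 and 10.17 with control siRNA and 8.15 and 8.39 with KDM6B siRNA. The 4 drug-arm arrays were nearly level, with a drug effect of 0.03 (95% confidence interval -0.26 to 0.32), and CD9 fell by 1.93 after KDM6B siRNA. Its interaction was 1.96 (SE 0.18, adjusted p = 0.00348). Of the 8 fits with an array left out, CD9 lost the call in the one without GSK-J4 replicate 2 (adjusted p = 0.0523), and it also lost it in the unmoderated test (adjusted p = 0.0665).

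ADGRG2, an adhesion G protein-coupled receptor, fell from 7.95 and 7.35 with control siRNA to 5.86 and 5.32 with KDM6B siRNA, while DMSO read 6.57 and 6.61 and GSK-J4 6.81 and 6.49. Its drug effect was 0.06 (95% confidence interval -0.50 to 0.61). NSG1, an endosomal protein of neurons, read 8.58 and 8.45 with DMSO, 8.98 and 9.07 with GSK-J4, 9.47 and 9.50 with control siRNA and 8.46 and 8.15 with KDM6B siRNA. RPL22L1, a paralog of a ribosomal protein, and the kinase CDC42BPA fell by 1.28 and 1.10 after the siRNA. In ADGRG2, CD9 and NSG1 the control siRNA level itself lay above DMSO, by 1.06, 0.60 and 0.97. Over the 19 genes control siRNA lay above DMSO for 14 (73.7%), against 79 of the 115 drug-only genes (68.7%) and 48.8% of all genes, and what part of the interaction this makes was not tested.

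TH, the enzyme that sets the pace of catecholamine production, was the 1 knockdown-only gene of the sympathetic programme. It read 9.19 and 9.11 with DMSO, 9.16 and 9.14 with GSK-J4, 8.18 and 8.31 with control siRNA and 7.30 and 7.11 with KDM6B siRNA. The drug arms overlapped (0.01, 95% confidence interval -0.28 to 0.29) and the siRNA arms were apart by 1.04, from a control siRNA level that was already 0.90 under DMSO. The interaction of 1.05 passed narrowly (adjusted p = 0.0419). The other catecholamine synthesis and storage genes did not pass in the interaction. The 16 measured members had a median drug effect of -0.04 and a median knockdown effect of -0.51, or -0.33 and -1.04 on the KDM6B siRNA arrays taken separately, and 5 had an unadjusted interaction p under 0.05, all with the drug effect higher, against 12.1% of all genes in either direction.

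The knockdown-only genes that rose were SLITRK6 and CYTH1. SLITRK6, a synaptic adhesion protein of sensory neurons, read 7.98 and 8.14 with DMSO, 8.39 and 8.48 with GSK-J4, 7.37 and 7.24 with control siRNA and 9.21 and 9.50 with KDM6B siRNA. Both treated arrays lay above both controls in each experiment, by 0.37 for the drug (adjusted p = 0.224) and by 2.05 for the siRNA (adjusted p = 0.00375), so the effects differed in size and not in sign. The exchange factor CYTH1 rose by 0.82 after the siRNA. The remaining knockdown-only genes, named here after their values were seen, were PLPP4, NPTN, CRIPT, NETO2, LOX, RAB30, MTMR6, PRSS3, BEGAIN, CCP110 and ALKBH5, and all fell.

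**Figure D4:**
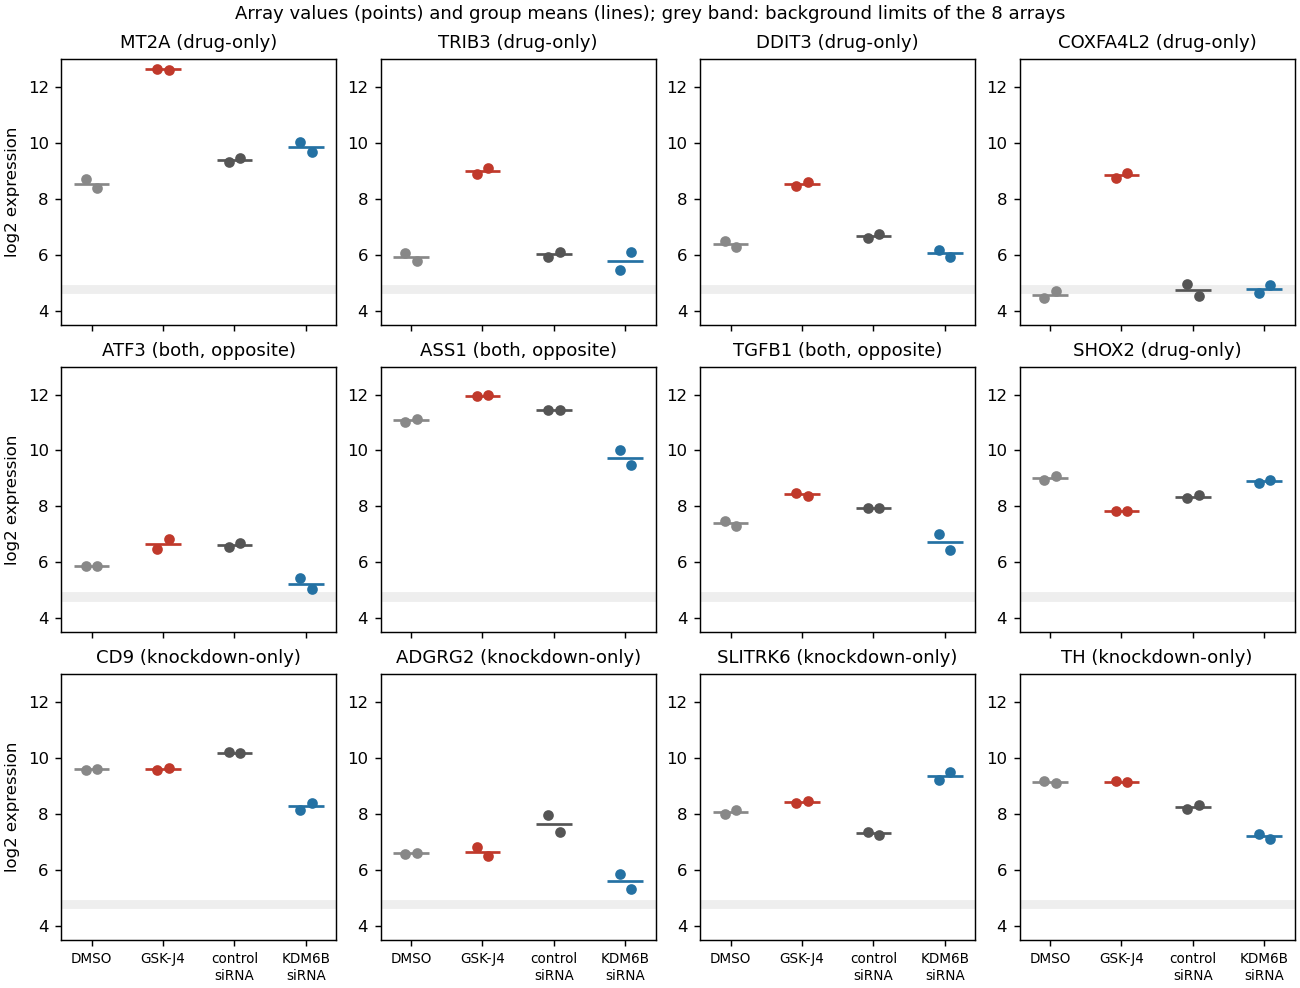
Log2 expression on each of the 8 arrays (points) with group means (lines) for 12 genes, all on 1 scale, with the range of background limits of the arrays as a grey band. MT2A, TRIB3, DDIT3 and COXFA4L2 stand out on the GSK-J4 arrays, CD9, ADGRG2 and SLITRK6 on the KDM6B siRNA arrays, and ATF3, ASS1 and TGFB1 lie higher with the drug and lower with the siRNA than in the matching control.

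In 9 genes GSK-J4 and KDM6B siRNA moved expression in opposite directions, each effect called, and in all 9 the drug raised the gene and the siRNA lowered it. Membership of this class depended on the setting. All 9 stayed in it with median centring, 6 with quantile normalization, 3 with array weights and 0 in the unmoderated test. In the limma fit the drug effects of ATF3 and ADGRG1 passed narrowly (adjusted p = 0.0479 and 0.0485). ASS1, which makes the precursor of arginine, read 11.04 and 11.12 with DMSO, 11.94 and 11.99 with GSK-J4, 11.45 and 11.43 with control siRNA and 10.01 and 9.47 with KDM6B siRNA. The drug effect was 0.89 (adjusted p = 0.0344), the knockdown effect -1.70 (adjusted p = 0.0159) and the interaction 2.59 (SE 0.25, adjusted p = 0.00415). TGFB1, a growth factor that restrains proliferation of many cell types, read 7.49 and 7.31, then 8.48 and 8.38, 7.95 and 7.93, and 7.02 and 6.43 in the same order of groups, with an interaction of 2.24. ATF3, a stress-induced repressor, read 5.86 and 5.85, 6.48 and 6.82, 6.56 and 6.69, and 5.43 and 5.03, so that control siRNA already stood at the level of the drug. Its interaction was 2.19 (SE 0.24, adjusted p = 0.00885), and it was the 1 member of the ATF4 list that the siRNA lowered. The siRNA also raised 1 member, KLHL24, an adaptor of a ubiquitin ligase, which rose by 0.93 under the drug and by 0.78 after the siRNA, with an interaction of 0.16 (adjusted p = 0.796), and which is named here after its values were seen.

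SPRY4, a feedback inhibitor of the MAPK pathway, rose by 0.80 and fell by 1.31, with an interaction of 2.11. Control siRNA stood 0.85 above DMSO for this gene. SHMT2, the mitochondrial serine hydroxymethyltransferase, read 11.11 and 11.11 with DMSO, 12.14 and 12.15 with GSK-J4, 11.03 and 11.15 with control siRNA and 10.34 and 10.09 with KDM6B siRNA, so its controls were level and its interaction was 1.91 (SE 0.18, adjusted p = 0.00438). ADGRG1, an adhesion receptor, had an interaction of 2.44 and was not above background with KDM6B siRNA, where it was at least 1.72-fold lower than with control siRNA. The other three were PCBP4, RAB33A and SFXN3. NR4A1, an immediate early nuclear receptor, had the same pattern with neither effect called (0.49 and -0.60, interaction 1.09, adjusted p = 0.0439).

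Cell cycle genes, on which the study centres, had medians below 0 under both agents. Of 59 measured E2F targets of DNA replication 6 fell under GSK-J4 and 9 after KDM6B siRNA. Over all genes these shares were 1.41% and 0.492%, and 3 of the 59 fell in both. In the limma fit 0 of them had a called interaction. Over all genes 0.746% had one with the drug effect higher and 0.175% with the knockdown effect higher. At these shares 0 calls among 59 genes does not show that the agents acted alike. Of the 59, 11 had an unadjusted interaction p under 0.05, against 12.1% of all genes. The drug effect was higher in 10 of these 11 and the knockdown effect in 1. The unmoderated test, which called 14 of all genes, called 0 of the 59. The median drug effect was -0.41 and the median knockdown effect -0.68. The median interaction was 0.30 with 49 of 59 members above 0, but it was 0.03 when KDM6B siRNA replicate 1 stood for the knockdown and 0.50 when replicate 2 did. CDK2, the S-phase kinase, read 8.76 and 8.81, 8.05 and 8.30, 8.89 and 8.86, and 7.74 and 7.75 with DMSO, with GSK-J4, with control siRNA and with KDM6B siRNA. It fell in both and its interaction of 0.52 (SE 0.18) did not pass (adjusted p = 0.291).

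Of 69 G2/M and mitosis genes 18 fell under GSK-J4 and 2 after KDM6B siRNA, against 1.41% and 0.492% of all genes. The median effects lay closer together than these counts, at -0.68 for the drug and -0.58 for the knockdown, or -0.30 and -0.87 on the KDM6B siRNA arrays taken separately. The median interaction was -0.04, or -0.39 and 0.26 by KDM6B siRNA array, of opposite signs. BUB1, a spindle checkpoint kinase, was the exception with the stronger fall under the drug. It read 8.67 and 8.51 with DMSO, 7.13 and 7.10 with GSK-J4, 8.36 and 8.42 with control siRNA and 7.98 and 7.96 with KDM6B siRNA, an interaction of -1.06 (SE 0.17, adjusted p = 0.0321). SKA1, a kinetochore protein, had an interaction of 1.01 with neither effect called. CDKN1A, which encodes the CDK inhibitor p21, read 6.06 and 5.65 with DMSO, 6.96 and 7.06 with GSK-J4, 6.35 and 6.57 with control siRNA and 5.82 and 5.31 with KDM6B siRNA. It rose under the drug by 1.15, its knockdown effect was -0.90 (95% confidence interval -1.37 to -0.43, adjusted p = 0.103), and the interaction was 2.05 (SE 0.29, adjusted p = 0.0237). With GDF15 and SESN2, which are also counted among the ATF4 targets above, it made 3 calls among 20 p53 targets. All 3 had the drug effect higher, against 0.746% of all genes. Of these 20 genes, 4 rose and 2 fell under GSK-J4, against 2.29% and 1.41% of all genes. Their median drug effect was -0.01 and their median knockdown effect -0.04.

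The other genes that the study names had small or imprecise interactions. MYCN read 12.16 and 12.12 with DMSO, 11.81 and 11.88 with GSK-J4, 12.06 and 12.06 with control siRNA and 11.92 and 10.78 with KDM6B siRNA, with an interaction of 0.41 (SE 0.43, adjusted p = 0.78) that depends on the second siRNA array. Interactions were 0.12 for MYC, -0.03 for CDK4, 0.75 for CDK6, 0.68 for E2F1, 0.54 for E2F8, -0.93 for CCNE1, 0.19 for RB1 and 0.05 for AKT1, and none of these 8 passed. They were 0.25 for EZH2, 0.82 for SUZ12, -0.06 for CTCF, 0.24 for NAV2, 0.17 for AURKB, 0.01 for BIRC5 and 0.29 for ASF1B, and none of these 7 passed. CTCFL was not above background in any group.

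Of the 33 functional lists, 16 held no called interaction in the limma fit, among them PRC2 subunits, the MYC network, ribosome biogenesis, adrenergic transcription factors, HOX genes, cholesterol synthesis, NRF2 targets, heat shock chaperones and interferon-stimulated genes. Over the 345 genes of these 16 lists 54 (15.7%) had an unadjusted p under 0.05, against 12.1% of all genes. The unmoderated test, with 14 calls over all genes, called 0 of them. Over all genes 0.746% had a called interaction with the drug effect higher and 0.175% with the knockdown effect higher. At these shares 0 calls in a short list does not show that the agents acted alike, and 14 calls over all genes are too few to tell.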

How the data were processed

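RNA of 8 BE2C cultures, 2 in each of 4 groups, was hybridised to Affymetrix arrays. The deposited table holds log2 expression per probe set, as read from its range of 1.69 to 13.4. How the authors corrected background, normalized and summarized probes is not given in the sources used here. Array medians lay between 6.16 and 6.20, so a change in total RNA per cell would not show. Of 24351 probe sets 21448 were for transcripts, 17709 had 1 symbol in the platform annotation, and the one with the highest mean stood for each of 17687 genes. Groups came from the labels, which call the replicates biological. In R 4.3.3, limma 3.58.1 fitted 1 coefficient per group with lmFit and eBayes (4 residual and 4.18 prior degrees of freedom), all tests were two-sided, and Benjamini-Hochberg adjustment ran over all genes. The number of arrays limits the precision. The background limit was the 95th percentile of 612 negative control probe sets per array, and folds against a group that did not reach it on either array are lower bounds that raise each dim value to that limit.

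Across genes, arrays with the same replicate number did not deviate together (correlations from -0.04 to 0.09), so the numbers were not used as pairs. The 34 gene lists (870 entries, 785 measured) and the contrast were chosen with earlier results of these data known, so list counts are descriptions and no list was tested. Named genes were the 12 largest called interactions in each direction, the 5 largest drug-only and knockdown-only genes per direction, up to 6 with opposite effects, up to 4 called members per list, and genes of the study's text. Alternatives were quantile normalization, median centring, every probe set, dim genes left out, a trended and robust prior, array weights, an unmoderated test, replicate blocks, a 1 log2 unit minimum and each array left out. In simulated arrays of the same 17687 genes, the fit recovered 46% of 50 interactions of 1 log2 unit, 100% of 50 of 2 and 98% of 50 of -2. Each simulated gene had the same spread in all groups. The measured KDM6B siRNA arrays differed from each other more than the other pairs did, so these shares may not hold for the data. Promoter windows were the 250 bases before RefSeq starts, and where a gene had several starts the window with most matches is shown.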

Additional observations from a re-analysis of the deposited data

Results flagged for a closer look

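Opposite calls for inhibitor and siRNA, with their difference tested by the limma interaction, drew attention to 6 of the genes named in the report. The interaction in log2 units was 2.59 for ASS1, 2.44 for ADGRG1, 2.24 for TGFB1, 2.19 for ATF3, 2.11 for SPRY4 and 1.91 for SHMT2. In each of the 6 the drug raised the gene and the siRNA lowered it. Of the whole class of 9 genes, 6 stayed in it with quantile normalization, 3 with array weights and 0 in the unmoderated test. Control siRNA lay above DMSO in 8 of the 9 genes with this pattern, by a median of 0.43, against 68.7% of the drug-only genes and 48.8% of all genes, and the exception was SHMT2 (-0.02). Time, vehicle and transfection differ between these controls and cannot be told apart, and their part in the pattern was not tested. Groups of 2 arrays are too small for a check of single outlying arrays.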

How the results depend on the processing

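Quantile normalization, median centring, every probe set, dim genes left out and a minimum of 1 log2 unit kept all 5 counts (interaction calls, each direction, drug-only and knockdown-only genes) within 1.5 times. All 163 called interactions (or the 160 still fitted) kept their sign under every setting run. The trended and robust prior, array weights, the unmoderated test and the replicate blocks leave the estimate itself unchanged. The genes had been chosen for a large interaction, so a kept sign does not show that a call is firm. A trended and robust prior gave 29 knockdown-only genes, and array weights gave 181 drug-only and 8 knockdown-only genes. The unmoderated test called 14 interactions, 11 with the drug effect higher and 3 with the knockdown effect higher, with 12 drug-only genes and 1 knockdown-only gene. These 12 were also drug-only in the limma fit, whereas 0 of its 19 knockdown-only genes stayed in their class. With the replicate number as a block the counts were 81, 75, 6, 68 and 5 in the same order, and with a replicate block within each experiment 52, 49, 3, 43 and 2. The numbers do not pair the samples, so a call lost under the block is not a weaker effect. With each array left out in turn the counts ranged from 17 to 2486, from 17 to 1445, from 0 to 1041, from 17 to 572 and from 0 to 1286, the highest always without KDM6B siRNA replicate 1. Of the 62 genes with a called interaction that the naming rule chose, 13 were called in all 8 of these fits, CD9 was called in 7, and TRIB3 and DNAJB9 in 6. With quantile normalization NR4A1 and SLC43A1 lost their call, and with array weights CYTH1 lost it and KDM6B gained one. The named genes without a called interaction that changed sign were AKT1 and BIRC5 under quantile normalization (-0.0031 and -0.047) and, with an array left out, AKT1 (-0.051 to 0.15), AURKB (-0.29 to 0.62), BIRC5 (-0.14 to 0.15), CDK4 (-0.19 to 0.13), E2F8 (-0.079 to 1.17), MYC (-0.034 to 0.27) and MYCN (-0.15 to 0.98). Array signal over background limits what can be seen, since 73.4% to 77.1% of genes lay above the background limit on an array. The cause of these changes was not tested.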

Other observations

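Protocadherins, adhesion molecules that give neurons a surface identity, stood out among the genes with the knockdown effect higher. They were chosen after the values were seen. Of 29 genes with symbols starting PCDH, 4 were called with the knockdown effect higher (PCDH18, PCDH17, PCDHB4 and PCDHB16) against 0.175% of all genes, 0 with the drug effect higher, and 22 had an interaction below 0. Their median drug effect was 0.02, their median knockdown effect 0.35 and their median interaction -0.37. GSK-J4 lowered 3 of the 29, KDM6B siRNA raised 0 and lowered 1, and 6 were not above background in any group. PCDH17 had an interaction of -1.17, PCDHB4 of -1.10 and PCDHB16 of -1.06. The protocadherin beta genes resemble each other in sequence, and whether their probes share signal was not checked.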
